A study of Mus musculus with 144 samples.

Results

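Described here are 50 genes of DNA replication and mitosis in single microglia-sorted cells of the mouse retina, before and after crush of the optic nerve. The members were given as a list of gene symbols, and each of the 50 was found once among the 55364 genes of the deposited table. They comprised 23 genes of S phase, 4 genes of the G1 phase and 23 genes of mitosis. The S-phase set held 11 genes of origin licensing and the replicative helicase, 7 of DNA synthesis at the fork and 5 of nucleotide supply. A total of 37 members reached 1 FPKM (fragments per kilobase of exon for every 1000000 assigned reads) in at least 10% of the cells, the limit for calling a gene measured, of which 18 were S-phase and 17 mitotic genes. All 50 entered every count and median below.

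The cells came from 16-week-old mice of the strain Iba1-EGFP, in which a green fluorescent protein reports Iba1 (Aif1), a gene of microglia and other macrophages, and were sorted singly by fluorescence. No treatment was given for 54 cells, while 54 were taken on day 2 and 36 on day 4 after nerve crush, which damages the axons that leave the eye. The 3 plates were filled alike, with 18, 18 and 12 cells of these groups. Untreated cells occupied rows A to C, day 2 rows D to F and day 4 rows G and H, so plate position cannot be told apart from time. The labels name no animal. Each time point was therefore 1 sample of cells, differences were not tested, SDs describe the spread between cells, and every difference is given with its values in the 3 plates.

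Replication is licensed in G1, when Cdc6 and Cdt1 help to load the MCM2 to MCM7 ring onto origins, and starts when Cdc45 and the GINS complex turn that ring into an active helicase. Polymerases, the sliding clamp Pcna and the enzymes that mature Okazaki fragments then copy the DNA from nucleotides that ribonucleotide reductase and thymidylate synthase supply. Many of these genes are known targets of E2F factors, whereas genes used in G2 and mitosis are known to be controlled through CHR elements (cell cycle genes homology regions) and CCAAT boxes. Microglia rarely divide in the healthy adult retina and are known to proliferate after injury.

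The promoters of 5 members on which the results turn are printed to show how these elements lie in replication genes (Mcm3, Mcm6), in mitotic genes (Cenpa, Ccnb2) and in Cdk1, the only matched mitotic gene with an E2F motif. Each runs 5′ to 3′ along the gene's strand from 250 bases before to 30 bases after the start site, taken from RefSeq on the build GRCm38.p6. Capitals mark matches on either strand to the E2F motifs (TTTCCCGC, TTTGGCGC, TTTCGCGC or TTTGCCGC), the CHR motifs (TTTGAA or TTCGAA) or CCAAT. In Mcm6 the run of capitals farthest from the start holds 2 overlapping E2F matches.
Mcm3: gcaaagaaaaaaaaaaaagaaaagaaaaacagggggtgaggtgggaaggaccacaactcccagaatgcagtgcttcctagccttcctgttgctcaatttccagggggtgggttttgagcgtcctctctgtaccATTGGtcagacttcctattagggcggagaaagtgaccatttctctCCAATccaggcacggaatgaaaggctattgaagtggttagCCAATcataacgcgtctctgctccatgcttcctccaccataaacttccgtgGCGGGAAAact
Mcm6: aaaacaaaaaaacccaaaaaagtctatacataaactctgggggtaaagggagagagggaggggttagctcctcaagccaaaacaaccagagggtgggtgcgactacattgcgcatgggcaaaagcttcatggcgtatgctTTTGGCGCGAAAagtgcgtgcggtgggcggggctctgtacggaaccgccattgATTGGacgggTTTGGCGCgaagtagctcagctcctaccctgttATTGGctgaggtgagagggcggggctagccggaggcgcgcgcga
Cenpa: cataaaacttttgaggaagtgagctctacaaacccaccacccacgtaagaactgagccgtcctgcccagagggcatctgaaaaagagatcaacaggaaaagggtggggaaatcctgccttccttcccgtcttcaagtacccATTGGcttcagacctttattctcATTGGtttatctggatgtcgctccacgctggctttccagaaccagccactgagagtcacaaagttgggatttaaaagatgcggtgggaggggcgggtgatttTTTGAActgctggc
Ccnb2: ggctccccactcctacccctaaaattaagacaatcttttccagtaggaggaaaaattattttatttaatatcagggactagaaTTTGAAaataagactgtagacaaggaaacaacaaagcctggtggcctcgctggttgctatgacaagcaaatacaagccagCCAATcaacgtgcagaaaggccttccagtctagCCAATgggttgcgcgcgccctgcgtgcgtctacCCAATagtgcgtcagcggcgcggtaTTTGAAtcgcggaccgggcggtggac
Cdk1: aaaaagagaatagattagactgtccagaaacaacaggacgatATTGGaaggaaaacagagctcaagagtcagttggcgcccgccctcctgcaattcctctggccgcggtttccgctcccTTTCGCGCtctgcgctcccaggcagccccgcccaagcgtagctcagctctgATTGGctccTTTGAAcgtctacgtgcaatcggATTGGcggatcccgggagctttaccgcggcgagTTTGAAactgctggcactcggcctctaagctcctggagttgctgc
The windows lie at chr1:20820283-20820562 (minus strand, Mcm3), chr1:128359676-128359955 (minus strand, Mcm6), chr5:30666636-30666915 (plus strand, Cenpa), chr9:70421525-70421804 (minus strand, Ccnb2) and chr10:69352883-69353162 (minus strand, Cdk1).

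Over the full RefSeq windows of 300 bases, 41 of the 50 members were matched by symbol, and Mcm4, Gins1, Gins2, Ccnd1, Ccnd2, Ccna2, Tpx2, Aurkb and Kif20a were not. An E2F motif stood in 9 of 20 matched S-phase genes (45%), among them Mcm3, Mcm5, Mcm6, Mcm7, Cdc6, Cdt1 and Uhrf1, and in 1 of 19 matched mitotic genes (5.26%), against 704 of 27025 genes with a window (2.61%). A CHR motif stood in 14 of 19 mitotic genes (73.7%) and 4 of 20 S-phase genes, against 21.7% of all genes. All 14 of those mitotic windows also held CCAAT, on its own found in 17 of 19 mitotic genes, 12 of 20 S-phase genes and 41.1% of all genes. The pair of CHR and CCAAT was found in 3 of 20 S-phase genes and 8.61% of all genes. A match is a description of the letters in the window, not of a bound site.

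Assigned reads recovered from the smallest step of the values had a median of 5.31 M per cell, where M is 1000000. The range was 0.190 to 18.9 M, with 3 cells below 1 M. The median number of genes at 1 FPKM or more was 2792 without treatment, 3469 on day 2 and 3958 on day 4. On the scale of log2(FPKM + 1), the median of all 8679 measured genes was 0.21 higher at day 2 and 0.45 higher at day 4 than in untreated cells, and member differences are to be read beside those values. Since whole reads made up only 59.5% of the nonzero values in the median cell, no count model was used.

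On the scale of mean log2(FPKM + 1), S-phase genes were higher at day 4 than in untreated cells as a group. Mitotic genes differed less on this scale and were on in few cells. The median difference of the 23 S-phase genes in mean log2(FPKM + 1) was 0.13 at day 2 (−0.29, 0.38 and 0.40 in plates 1, 2 and 3) and 1.40 at day 4 (0.51, 1.83 and 1.24). The median of the 23 mitotic genes was 0.52 at day 2 (0.00, 0.95 and 0.54) and 0.72 at day 4 (0.02, 0.96 and 0.81). From day 2 to day 4 the S-phase median was 1.16 higher and the mitotic median 0.21 higher, where the median of all measured genes was 0.25. In plate 1 the mitotic median thus lay near 0 at both days. The contrast depended on the scale. With the log2 of the mean FPKM plus 1, the S-phase and mitotic medians were 0.70 and 2.21 at day 2. At day 4 they were 2.33 and 2.02. The median of all measured genes was then 0.10 at day 2 and 0.18 at day 4.

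Counted by gene, 20 of the 50 members were higher at day 4 by at least 1 on this scale and higher in each of the 3 plates, beside 18.9% of all measured genes, and 0 were lower, beside 0.346%. They were 13 of 23 S-phase genes, 5 of 23 mitotic genes and 2 of 4 G1 genes. At day 2 the same rule gave 2 members, the mitotic genes Cenpa and Hmgb2, beside 3.89% of measured genes, with 0 members lower beside 0.0576%. The day 2 count depended on the scale. It was 14 members (12 of them mitotic) with the log2 of the mean FPKM plus 1, beside 8.04% of measured genes. With a pseudocount of 10 it was 0, beside 0.588%. Cenpa alone passed with detected genes as a term (beside 0.945% of measured genes) or among cells with 2500 to 4500 detected genes (beside 5.15%). Under these 2 settings Hmgb2 differed by 0.43 and 0.96. At day 4 a pseudocount of 10 left 7 members, beside 5.21% of measured genes. Between day 2 and day 4, 16 members were higher at day 4, again 13 of 23 S-phase genes with 2 G1 genes and 1 mitotic gene (Ccna2), beside 9.57% of measured genes, and 0 were lower beside 0.864%. These comparisons share the untreated or the day 2 cells. Members past the rule at day 4 made up 56.5% of the S-phase set and 21.7% of the mitotic set. The mitotic share is near the 18.9% of measured genes. Both set shares count the 11 genes of these sets below the limit for measured genes, and without that limit 3.00% of all genes passed. Hmgb2, Cks1b, Cks2 and Ube2c among the mitotic genes and Fen1 among the S-phase genes also differed by at least 1 at day 4, but not in the same direction in each plate.

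**Figure D1:**
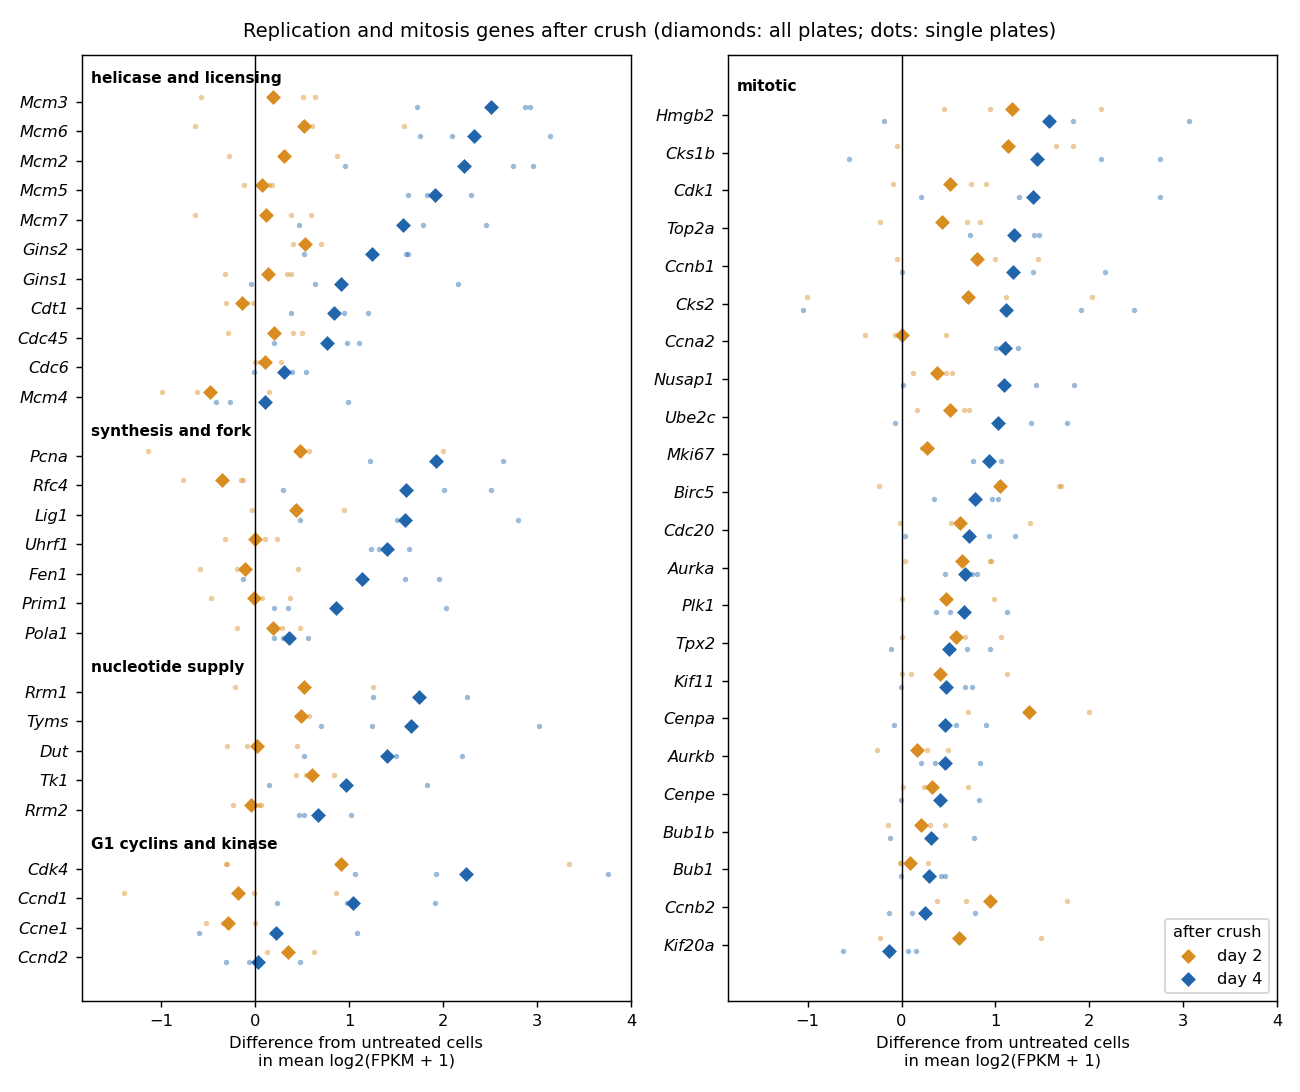
Difference of each of the 50 members from untreated cells in mean log2(FPKM + 1), by role, with diamonds for all plates and dots for the 3 single plates, in orange for day 2 and blue for day 4. Most S-phase genes lie near 0 at day 2 and right of 1 at day 4 (set medians 0.13 and 1.40), while the 2 colours lie closer together for the mitotic genes (0.52 and 0.72).

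Cells with more detected genes had more members on. Over all cells, which share plates and library type, the mean log2 level of the S-phase set went with the number of detected genes (Pearson r = 0.59, Spearman rho = 0.55) and not with the log of the reads (r = 0.03), and the mitotic mean did likewise (r = 0.52 and 0.09). Fitted with detected genes as a term, the day 4 median was 0.76 for the S-phase set, 0.08 for the mitotic set and 0.07 for all measured genes, and the S-phase median at day 2 was −0.14. Then 8 members passed the rule at day 4, namely Mcm2, Mcm3, Mcm5, Mcm6, Rrm1, Tyms, Rfc4 and Cdk4, and none of the mitotic genes, beside 5.65% of measured genes. Among cells with 2500 to 4500 detected genes, a limit chosen after seeing the data, 9 members passed (Mcm2, Mcm3, Mcm6, Mcm7, Gins2, Rrm1, Rfc4, Ccnd1 and Cdk4), beside 8.64%, and the day 4 medians were 0.92 for the S-phase set, 0.16 for the mitotic set and 0.095 for all measured genes. Fewer molecules captured per cell and less RNA in the cell cannot be told apart here.

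Levels of most members lay either near 0 or far above it in a given cell, so cells were counted. A gene was called on in a cell at 20 FPKM or more, and a set was called on with at least 6 of its 23 genes on. Cell counts given in a row without totals are for the untreated, day 2 and day 4 groups, of 54, 54 and 36 cells. The S-phase set was on in 2 of 54 cells without treatment (3.70%, exact Clopper-Pearson 95% interval 0.452 to 12.7%), in 3 of 54 on day 2 (5.56%, 1.16 to 15.4%) and in 18 of 36 on day 4 (50%, 32.9 to 67.1%). These intervals cover counting error only. By plate the day 4 counts were 5, 9 and 4 of 12 cells, each above every plate of the other time points, where 0 to 2 of 18 cells had the set on. Without plate 2 the day 4 share was 37.5% and the day 2 share 2.78%.

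The mitotic set was on in 1 of 54 cells without treatment (1.85%, 0.0469 to 9.89%), in 7 of 54 on day 2 (13%, 5.37 to 24.9%) and in 7 of 36 on day 4 (19.4%, 8.19 to 36%). The day 2 cells were 0, 4 and 3 of 18 in plates 1, 2 and 3, and the day 4 cells 1, 3 and 3 of 12. Plate 1 therefore held no such cell at day 2, and without plate 2 the day 2 share was 8.33%. One of the 7 cells of day 2, in well E6 of plate 2, had only 0.190 M reads. Without the cells under 1 M reads, the counts at day 2 were 6 of 52 for the mitotic set and 3 of 52 for the S-phase set. Without plate 2, no untreated cell had the mitotic set on (0 of 36, with an upper bound of 9.74% by the same interval).

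**Figure D2:**
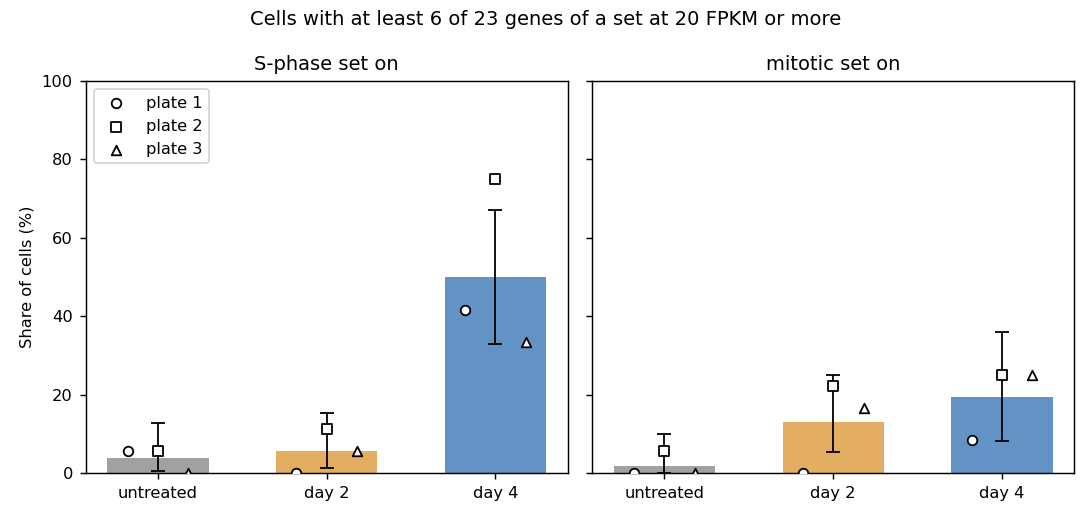
Share of cells, in percent, with at least 6 of 23 S-phase genes (left) or mitotic genes (right) at 20 FPKM or more, with bars for all cells of a time point, exact 95% intervals and open symbols for the 3 plates. The S-phase share is 3.70% and 5.56% in untreated and day 2 cells and 50% at day 4, and the mitotic share is 1.85%, 13% and 19.4%.

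The limit of 6 genes decided how many cells were counted. With at least 3 genes the S-phase set was on in 3, 10 and 24 cells and the mitotic set in 2, 17 and 11 cells of the untreated, day 2 and day 4 groups. With at least 9 genes these were 2, 1 and 7 cells and 1, 3 and 4 cells. Leaving out the 2 S-phase and 4 mitotic genes of which under 50% of the values above 0 were whole reads, a choice made after seeing the data, gave 2, 3 and 15 cells for the S-phase set and 1, 3 and 6 cells for the mitotic set. The S-phase set was on in a larger share of day 4 cells in each of these counts, whereas the mitotic shares at day 2 and day 4 changed order with 3 genes (31.5% and 30.6%).

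The sets coincided in some cells and not in others. Both were on in 1, 2 and 6 cells of the untreated, day 2 and day 4 groups. The S-phase set alone was on in 1, 1 and 12 cells, and the mitotic set alone in 0, 5 and 1 cells. Of the 7 mitotic cells of day 2, 5 thus had fewer than 6 S-phase genes on, while 6 of the 7 mitotic cells of day 4 also had the S-phase set on. Neither set was on in 52 of 54, 46 of 54 and 17 of 36 cells. Near the limit, with 4 to 7 S-phase genes on, lay 0 untreated cells, 5 on day 2 and 10 on day 4. Of the 18 day 4 cells with the S-phase set on, 5 had only 6 or 7 of its genes on.

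At least 15 mitotic genes were on in 3 cells of day 2 and 3 cells of day 4. At day 2, the cell in well F6 of plate 2 had 15 mitotic and 0 S-phase genes on, with 2154 FPKM of Ccnb2 and 1109 FPKM of Cdc20. The cell in well E5 of plate 3 had 18 mitotic and 2 S-phase genes on, and well F2 of plate 2 had 19 and 8. At day 4 the cells in wells H6 and G2 of plate 2 and H2 of plate 3 had 22, 20 and 22 mitotic genes and 14, 6 and 12 S-phase genes on. The S-phase count was highest in well G4 of plate 3 at day 4, with 21 of 23 S-phase and 7 of 23 mitotic genes on. Both untreated S-phase cells also had many members on, with 16 S-phase and 5 mitotic genes in well B3 of plate 1 and 15 and 11 in well B5 of plate 2.

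**Figure D3:**
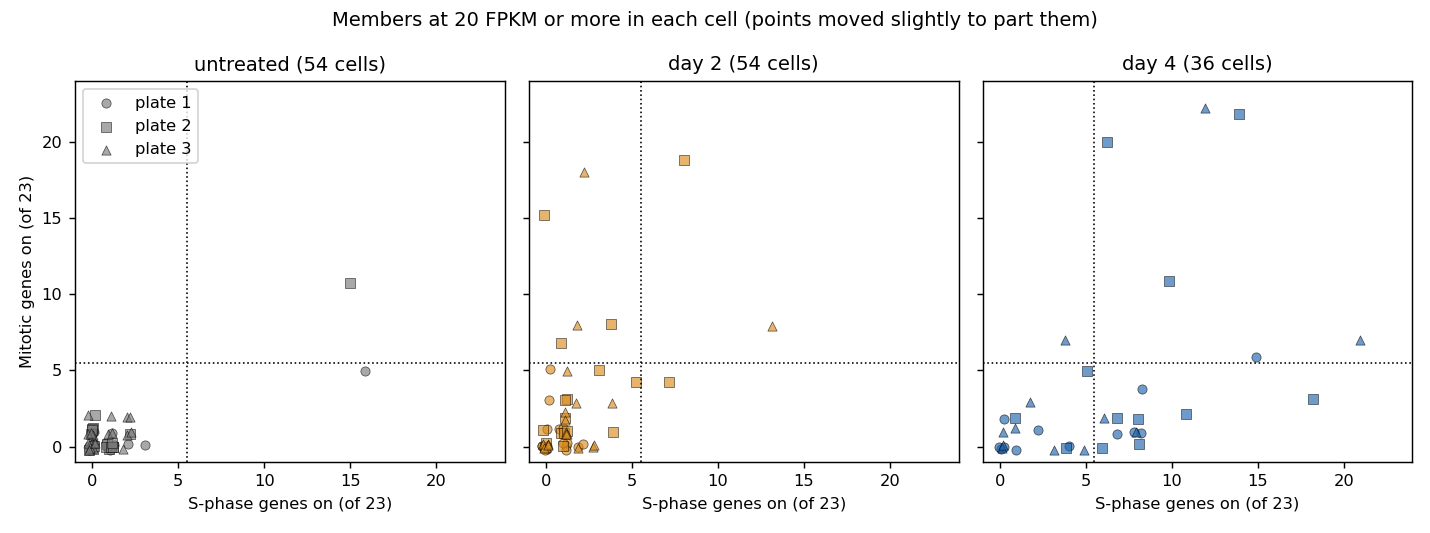
Number of S-phase genes (horizontal) and mitotic genes (vertical) at 20 FPKM or more in each cell, by time point, with symbols for the plates and dotted lines at the limit of 6 genes. At day 2 the cells with at least 15 mitotic genes on have 0 to 8 S-phase genes on, at day 4 they have 6 to 14, and 12 cells of day 4 lie at the lower right with the S-phase set alone.

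Of the licensing and helicase genes, 6 of 11 were higher at day 4 by the rule (54.5%, beside 18.9% of measured genes). They were Mcm2, Mcm3, Mcm5, Mcm6, Mcm7 and Gins2. At day 2 none passed, beside 3.89% of measured genes. Mcm3, a subunit of the ring, ranged from 0 to 347 FPKM in untreated cells (median 0.451), from 0.0458 to 176 FPKM at day 2 (median 0.399) and from 0.0218 to 496 FPKM at day 4 (median 21.4). It was on in 5 of 54, 8 of 54 and 18 of 36 cells, and the ranges overlapped. Its mean log2(FPKM + 1) was 1.19 ± 1.99 (SD over cells) in untreated cells and 3.70 ± 3.23 at day 4, a difference of 2.51 (1.72, 2.87 and 2.92 by plate).

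Mcm6, another ring subunit, was on in 4, 7 and 16 cells and differed by 2.33 at day 4 (1.76, 3.14 and 2.09). Its levels reached 224 FPKM in untreated cells, 322 FPKM at day 2 and 498 FPKM at day 4, over medians of 0.226, 0.298 and 0.564 FPKM. Mcm2 was on in 2, 5 and 12 cells and Mcm5 in 3, 2 and 12 cells, with day 4 differences of 2.22 and 1.91. Mcm7 was on in 2, 2 and 9 cells and differed by 1.57. Its exons overlap those of Cops6 and Ap4m1, so reads of these genes may not be separable. Each of these 5 ring subunits was higher in every plate at day 4.

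Mcm4, the remaining subunit of the ring, stood apart. It was on in 6 of 54, 3 of 54 and 6 of 36 cells, and its difference at day 4 was 0.10 (−0.41, 0.99 and −0.27). Its mean level was 25.3 FPKM in untreated cells, of which the highest cell (737 FPKM) gave 53.9%, and 16.4 FPKM at day 4. The difference between Mcm4 and the other subunits was not tested.

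Among the factors that activate the ring, Gins2 was on in 2, 5 and 8 cells with a day 4 difference of 1.25 (0.51, 1.62 and 1.6), and it shares exonic sequence with Gse1. Gins1 was on in 2, 3 and 6 cells (0.92, with −0.04 in plate 3), and Cdc45 in 1, 2 and 6 cells (0.76). Of the loading factors, Cdt1 was on in 2, 1 and 7 cells (0.84) and Cdc6 in 0, 1 and 2 cells (0.31). Cdc45, Cdc6 and Cdt1 did not reach the limit for measured genes. All 11 genes had a positive difference at day 4, beside 81.9% of measured genes, and 9 of 11 at day 2 (81.8%), beside 74.4%.

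For DNA synthesis and the fork, 4 of 7 genes passed the rule at day 4 (57.1%, beside 18.9% of measured genes). They were Pcna, Rfc4, Lig1 and Uhrf1. Pcna, the sliding clamp that holds polymerases on DNA, was the S-phase member with the highest levels in untreated cells, at a mean of 49.1 FPKM, and was on in 13 of 54, 16 of 54 and 18 of 36 cells. It ranged from 0 to 642 FPKM in untreated cells (median 0.715), to 1957 FPKM at day 2 (median 1.29) and to 733 FPKM at day 4 (median 20.3). The day 4 difference was 1.92 (1.90, 2.64 and 1.23), and the day 2 difference of 0.47 differed in sign between plates (−1.14, 2.00 and 0.57). Pcna was also on in 27 of 115 cells with neither set on, so the gene alone did not separate the cells.

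Lig1, the ligase that seals Okazaki fragments, was on in 2, 4 and 11 cells and differed by 1.59 at day 4 (0.48, 2.79 and 1.51). Uhrf1, which brings the maintenance methyltransferase to newly copied DNA, was on in 1, 1 and 9 cells and differed by 1.40 (1.63, 1.24 and 1.32). Rfc4, a subunit of the clamp loader, was on in 3, 1 and 10 cells and differed by 1.61 (0.30, 2.51 and 2.01). Of its day 4 mean of 122 FPKM, the highest cell (2221 FPKM) gave 50.6%, only 44.5% of its values above 0 were whole reads, and its exons overlap those of Eif4a2.

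The flap nuclease Fen1 was on in 7, 5 and 12 cells and differed by 1.14 at day 4, but not in plate 1 (−0.13). Its values were whole reads in 40.7% and its exons overlap Tmem258. The primase subunit Prim1 was on in 3, 2 and 7 cells (0.86) and Pola1, the catalytic subunit of polymerase alpha, in 0, 2 and 1 cells (0.35). Prim1 was on in 6 of 12 cells of plate 2 at day 4 and in 1 and 0 of 12 cells of plates 1 and 3.

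In nucleotide supply, 3 of 5 genes passed the rule at day 4 (60%, beside 18.9% of measured genes). They were Rrm1, Tyms and Dut. Rrm1, the large subunit of ribonucleotide reductase, was on in 2, 5 and 12 cells, with a day 4 difference of 1.74 (1.72, 1.25 and 2.26). Rrm2, its small subunit, was on in 1, 1 and 5 cells with a difference of 0.67 and did not reach the limit for measured genes. The mean level of Rrm2 was higher in untreated cells (13.8 FPKM) than at day 4 (11 FPKM), and 1 untreated cell at 731 FPKM gave 98.4% of the former.

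Tyms, thymidylate synthase, was on in 0, 4 and 10 cells and differed by 1.65 (0.70, 3.02 and 1.24), from a maximum of 15.6 FPKM in untreated cells to 361 FPKM at day 2 and 122 FPKM at day 4. Dut, which removes dUTP, was on in 1, 1 and 9 cells and differed by 1.41 (1.5, 2.20 and 0.52). Tk1, thymidine kinase, was on in 2, 6 and 7 cells and differed by 0.97. Tk1 was on in 9 of 9 cells with both sets on and in 2 of 14 cells with the S-phase set alone. These shares describe cells that were chosen with Tk1 among the 23 genes.

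The 4 G1 genes differed among themselves. Cdk4, the kinase that cyclin D activates, was the member on in most cells, with 16 of 54, 28 of 54 and 25 of 36. It ranged from 0.0871 to 2738 FPKM in untreated cells (median 1.10), from 0.146 to 151 FPKM at day 2 (median 20.7) and from 0.0251 to 357 FPKM at day 4 (median 53.8). Its mean log2 level was 2.25 higher at day 4 (1.06, 1.92 and 3.76), yet the mean FPKM was not (89.2 in untreated cells and 78.9 at day 4), and 1 untreated cell gave 56.8% of the untreated total. At day 2 the difference of 0.91 came from plate 3 (3.34), with −0.31 in each of plates 1 and 2. Of its values above 0, 43.1% were whole reads, and its exons overlap those of Tspan31.

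Ccnd1, cyclin D1, was on in 6, 5 and 9 cells and differed by 1.04 at day 4 (0.23, 0.97 and 1.92). Ccnd2, cyclin D2, was on in 1, 3 and 1 cells, and its day 4 difference was 0.03. Ccne1, cyclin E1, which acts at the start of S phase, was on in 2, 0 and 3 cells. All 5 of these cells had the S-phase set on, and Ccne1 is not one of the genes of that set. By contrast Ccnd1 was on in 5 of 23 cells with the S-phase set on and in 14 of 115 cells with neither set. Cdk4 was on in 21 of 23 cells with the S-phase set on, 14 of 15 with the mitotic set on and 43 of 115 with neither.

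Of the mitotic genes, 17 of them measured, 5 of 23 passed the rule at day 4 (21.7%). This stands beside 18.9% of measured genes and 3.00% of all genes without that limit. Those past it were Ccna2, Ccnb1, Cdk1, Top2a and Nusap1. Cdk1, the kinase that drives entry into mitosis, ranged from 0 to 37.4 FPKM in untreated cells, to 143 FPKM at day 2 and to 143 FPKM at day 4, with medians of 0.0895, 0.0614 and 0.120 FPKM. It was on in 2, 6 and 10 cells and differed by 0.51 at day 2 and 1.40 at day 4 (0.21, 2.75 and 1.25). Ccna2, cyclin A2, which acts in S phase as well as in G2, was on in 2, 3 and 8 cells, with differences of 0.00 at day 2 and 1.10 at day 4 (1.24, 1.01 and 1.06). It was the only mitotic member higher at day 4 than at day 2 by the rule.

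Ccnb1, cyclin B1, was at most 1.33 FPKM in the 54 untreated cells and on in 5 cells at day 2 and 6 at day 4, with no such cell in plate 1. It differed by 0.80 at day 2 and by 1.19 at day 4 (0.00, 2.16 and 1.40), and 43.6% of its values were whole reads. Top2a, the topoisomerase that untangles sister chromatids, was on in 0, 4 and 6 cells (1.20 at day 4). Nusap1, a spindle protein, was on in 0, 2 and 6 cells (1.10, with 0.02 in plate 1). Mki67, a widely used marker of proliferation, was on in 0, 2 and 5 cells and differed by 0.93 at day 4 (0.77, 0.96 and 1.06), without reaching the limit for measured genes.

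Another group of mitotic genes was on in more of the 54 cells of day 2 than of the 36 cells of day 4. Cenpa, the histone variant of the centromere, was at most 1.72 FPKM in the 54 untreated cells, reached 540 FPKM at day 2 and 106 FPKM at day 4, and was on in 0, 11 and 3 cells. Its difference was 1.36 at day 2 (0.71, 1.37 and 1.99) and 0.47 at day 4 (−0.08, 0.90 and 0.58). Of the 14 cells with Cenpa on, 7 had neither set on, so the gene alone did not separate the cells. The cell at 540 FPKM, in well F6 of plate 1, gave 35.4% of the day 2 total and had 3 mitotic genes on. Ccnb2, cyclin B2, was on in 1, 9 and 3 cells, with differences of 0.94 at day 2 (0.37, 0.68 and 1.77) and 0.25 at day 4. The highest day 2 cell, at 2154 FPKM, gave 51.5% of the day 2 mean of 77.5 FPKM. Both promoters printed above hold a CHR motif close to the start site, as does that of Cdk1, which differed more at day 4. A CHR motif stood in 14 of 19 matched mitotic genes, so it is not particular to Cenpa and Ccnb2.

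Cenpa, Ccnb2, the kinesin Kif20a and the G1 gene Ccnd2 were the members that were lower at day 4 than at day 2 in each plate. Their differences were −0.89, −0.69, −0.75 and −0.31, none of which reaches 1. Kif20a was on in 3, 6 and 2 cells, 45% of its values were whole reads, and its exons overlap Cdc23. Birc5, survivin, which guides chromosome segregation, was on in 2 of 54, 10 of 54 and 6 of 36 cells. It differed by 1.04 at day 2, with −0.24 in plate 1, and by 0.78 at day 4. Tpx2, a spindle assembly factor, was on in 1 of 54, 6 of 54 and 3 of 36 cells and differed by 0.58 and 0.51. For Birc5 and Tpx2 the shares of cells at day 2 and day 4 were thus close.

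The small, abundant members were Hmgb2, a chromatin protein, and the kinase subunits Cks1b and Cks2. Hmgb2 was on in 14, 22 and 17 cells and differed by 1.17 at day 2 (0.94, 2.12 and 0.45) and 1.57 at day 4 (1.83, 3.06 and −0.18). Only 8.3% of its values above 0 were whole reads, so its level is uncertain. Cks1b was on in 3, 11 and 9 cells (1.14 and 1.44, with −0.05 and −0.56 in plate 1) and Cks2 in 8, 14 and 10 cells (0.71 and 1.11, with −1.01 and −1.05 in plate 3). As shares of the 54, 54 and 36 cells, Hmgb2, Cks1b and Cks2 were each on most often at day 4. Their mean levels at day 4 were 76.2, 92.4 and 87.9 FPKM, the highest among the mitotic genes.

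The remaining mitotic genes were off in nearly every cell. The spindle and checkpoint genes Aurka, Aurkb, Bub1, Bub1b, Plk1, Kif11, Cenpe and Cdc20 were each on in 0 to 2 untreated cells, 2 to 4 cells on day 2 and 3 to 5 on day 4. Plk1, Aurka, Cdc20, Kif11 and Cenpe did not reach 20 FPKM in any untreated cell. Cdc20, an activator of the anaphase-promoting complex, reached 1109 FPKM at day 2, and Ube2c, the ubiquitin carrier of that complex, was on in 1, 4 and 6 cells, with day 4 differences of 0.72 and 1.02 (−0.07 in plate 1 for Ube2c). Exons of Cdc45, Tk1, Lig1, Ccnd1, Ccnd2, Ccna2, Top2a, Nusap1, Ube2c, Plk1 and Cdc20 overlap other genes too, and with no strand setting given the reads of such pairs cannot be told apart. At day 2 all 23 mitotic genes had a positive difference over all plates, as did 74.4% of measured genes, and 10 of 23 were higher in each plate, as were 28.3% of measured genes.

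**Figure D4:**
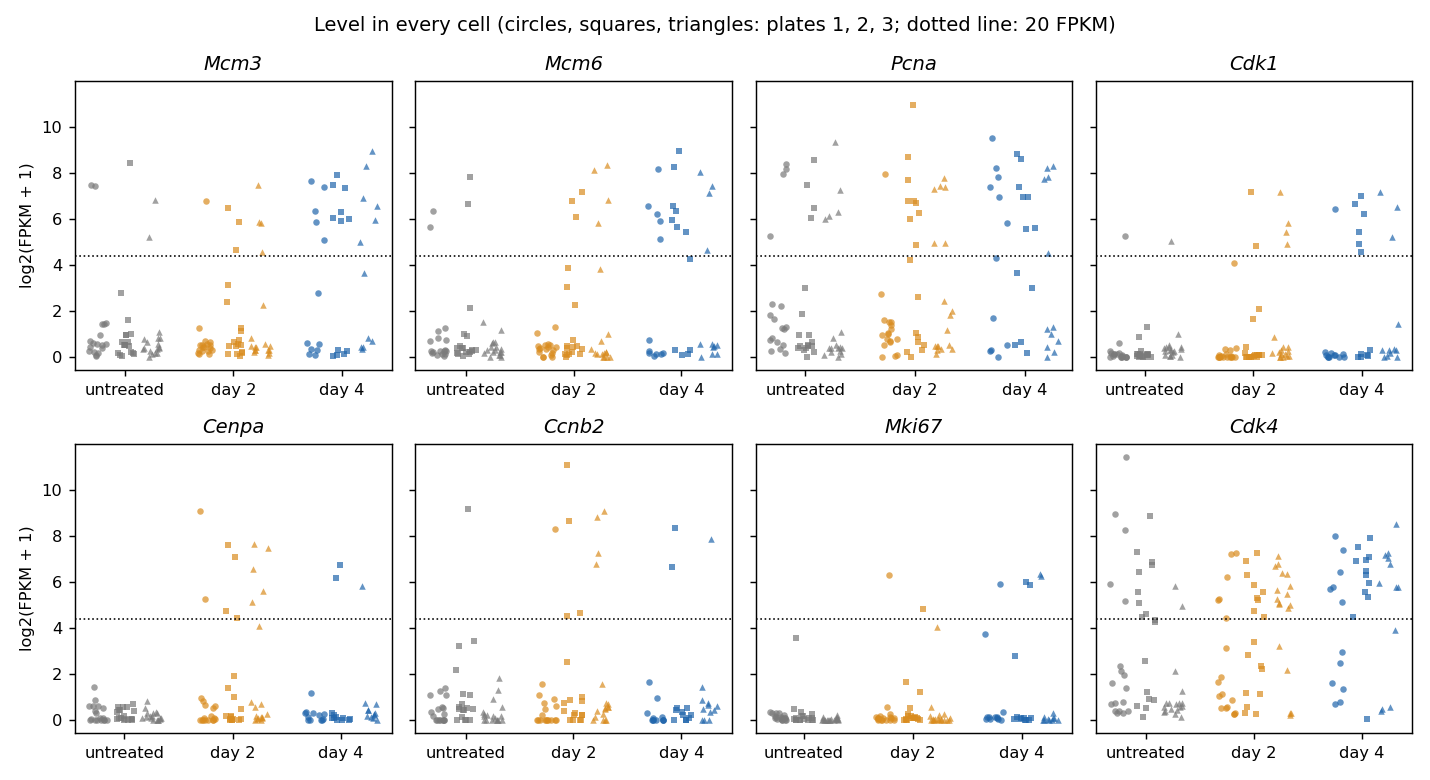
Level of 8 members in every cell as log2(FPKM + 1), by time point and plate, with a dotted line at 20 FPKM. Most cells lie near 0 for most of these members. Cdk4 is an exception, on in 28 of 54 cells at day 2 and 25 of 36 at day 4. Mcm3 and Pcna are each on in 18 of 36 cells at day 4. Cells at 20 FPKM or more number 5, 8 and 18 for Mcm3 and 0, 11 and 3 for Cenpa in untreated, day 2 and day 4 cells.

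Cells with a set on carried microglia genes. In the 29 cells with either set on, Csf1r and Aif1 were at 20 FPKM or more in 29 of 29, and P2ry12 and Tmem119, markers of resident microglia, in 26 of 29. Of 8 monocyte markers, F13a1 was at this level in 2 of 29 cells (up to 130 FPKM), Plac8 in 1 (131 FPKM) and the other 6, Ly6c2 and Ccr2 among them, in 0. Of the 10 microglia markers, these cells had 4 to 10 on, and of 8 border macrophage markers 0 to 4. Among the border macrophage markers, Pf4 was on in 5 of 29, Ms4a7 and Stab1 in 3 each and Mrc1 in 1 of 29. In the 115 other cells P2ry12 was on in 89 and Mrc1 in 14.

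Cells with a set on had more detected genes. Their median was 4864.5 in the 18 day 4 cells with the S-phase set on and 2969 in the 17 day 4 cells with neither set, at 6.71 and 5.69 M reads. The title genes Gpr84, Tnf and Il1a were on in 17, 14 and 16 of those 18 cells and in 8, 9 and 10 of the 17 cells. Of the values of Gpr84 and Il1a, 39.6% and 47.2% were whole reads, and the part of the number of detected genes in these shares was not tested. After thinning every cell to 1 M reads, the S-phase set was on in 2 of 53, 3 of 52 and 18 of 36 cells. Within 2500 to 4500 detected genes it was on in 1 of 31, 2 of 27 and 7 of 18 cells, and the mitotic set in 1, 2 and 2 of these cells.

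Spread between wells was checked over the 343 values of a member at 100 FPKM or more. The same gene was on in 20.4% of the other wells in that column of the plate and in 19.9% of the wells in other columns. It was above 0 in 89.9% and 84.5% of them, at medians of 0.416 and 0.364 FPKM. Low levels of a member, below 1 FPKM, were thus common both in the column of a high cell and elsewhere on its plate.

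Other genes of the same pathways were taken from longer lists. Of 40 further replication genes, 8 were higher at day 4 by the rule and 0 lower, and the largest differences were 2.43 for Dctpp1, a nucleotide hydrolase, 2.27 for Tipin, a fork protection factor, 1.81 for Rfc2, 1.6 for Slbp and 1.53 for the maintenance methyltransferase Dnmt1. Their median was 0.67 over 40 genes. Of 50 further mitosis genes, 3 were higher (Smc2, Tacc3 and Pbk, by 1.75, 1.69 and 1.33), with a median of 0.43. The share past the rule was 20% in the first list and 6% in the other, beside 18.9% of measured genes, and the medians stand beside 0.45 for all measured genes. Only 22 of the 40 and 18 of the 50 genes reached the limit for measured genes, and without that limit 3.00% of all genes passed. At day 2 none of the genes of these lists passed, beside 3.89% of measured genes.

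Of 19 cell cycle regulators, 7 of them measured, 4 were higher at day 4 (21.1%). This stands beside 18.9% of measured genes and 3.00% of all genes without that limit. The 4 were the pocket protein Rbl1 (1.27), the repressor E2f4 (1.41), Cdk6 (1.35) and cyclin D3, Ccnd3 (1.28). E2f1, an activator of S-phase genes, was on in 1, 1 and 4 cells and differed by 0.57. Of 12 inhibitors and arrest genes, 8 of them measured, only Cdkn1a, which encodes p21, passed the rule (8.33%, beside 18.9% of measured genes). It differed by 2.20 (2.09, 3.23 and 1.28) and was on in 9, 12 and 17 cells. Of the values of Cdkn1a, Rfc2 and Slbp, 46.8%, 45.1% and 27.5% were whole reads, so their levels are uncertain. Cdkn1b, which encodes p27, was on in 3, 1 and 0 cells and differed by −0.32.

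The genes whose levels over all cells were most like the mean of the S-phase set were Tipin (Pearson r = 0.68), Asf1b (0.66), Fignl1 (0.66), Dck (0.65), Tmpo (0.64), Alad (0.64), Gm6091 (0.62) and Gmnn (0.62). For the mitotic set they were Prc1 (0.86), Pbk (0.80), Cdkn3 (0.76), Rccd1 (0.75), Pimreg (0.74), H2ax (0.74), Cdca3 (0.73) and H2ac10 (0.72). Rccd1 and Prc1 overlap on the genome. These cells share plates and library type, and few cells with a set on carry each value. The means of both sets themselves had r = 0.51 and rho = 0.45. Cdkn3, a phosphatase of cell cycle kinases, was on in 1, 9 and 3 cells, beside 0, 11 and 3 for Cenpa.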

How the data were processed

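Single cells were lysed, and cDNA was amplified in the same tube and made into libraries with the Nextera XT kit, per the labels' protocols. The submitters' processing notes name STAR 2.7.2b, featureCounts 1.6.1 and the trimming tools Trimmomatic 0.36, cutadapt 1.16 and Trim Galore 0.4.4, with the builds mm10 and GRCm38.p6, but no settings. The values deposited by the authors are FPKM, and multiplied by gene length they summed to 1e+09 in every cell. The labels mention no molecular identifiers or strand.

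Depth was recovered by taking the commonest product of FPKM and length in a cell as 1 read. Whole reads (tolerance 0.01 read) made up 49.2 to 69.1% of the values above 0 in a cell. Levels were compared as mean log2(FPKM + 1) over cells, a scale that understates low genes. Where a symbol repeats, the gene with the highest mean was used, which left 55254 symbols. Alternatives covered the pseudocount, the scaling, detected genes as a covariate, thinning, the limits for calling genes and sets on, and leaving out each plate. Depth recovery was tested on simulated cells of whole reads, so recovery with fractions of a read was not. The rule for calling genes higher or lower was tried on resampled untreated cells with known changes. The limits for calling genes and sets on were not tested in this way. Cells had 0.190 to 18.9 M reads (M is 1000000). Python 3.11.15 with numpy 2.4.6, pandas 2.3.3 and scipy 1.17.1 was used.

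The members, gene lists, limits and motifs were chosen with earlier results of these data known. Members were named by role: those past the rule and the 4 of each role with the highest mean. From other lists, at most 5 genes with the largest day 4 difference and the same sign in every plate were named, with the 8 genes most correlated with each set and the 3 genes of the title. Ranges of the other members, single cells and a few lower members were chosen after their values were seen.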

Additional observations from a re-analysis of the deposited data

Results flagged for a closer look

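Against untreated cells, 2 members had opposite signs at day 2 and day 4 in every plate. Cdt1, a licensing factor, differed by −0.14 at day 2 (−0.31, −0.09 and −0.02) and by 0.84 at day 4 (0.95, 1.20 and 0.39). It did not reach the limit for measured genes, and 1 untreated cell gave 84.6% of its untreated total. Rfc4, of the clamp loader, differed by −0.35 at day 2 (−0.77, −0.15 and −0.13) and by 1.61 at day 4 (0.30, 2.51 and 2.01). Both comparisons share the untreated cells, and the difference between the days was not tested.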

How the results depend on the processing

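Each time point is 1 sample of cells, so animals and time points cannot be told apart, and no paired analysis was possible because the labels tie no cell to an animal or to a cell of another time point. Differences within each plate are given in its place. Of the alternative values for sets, counts and shares, 123 stayed within the spread between plates, within 1.5 times the count or within the counting interval of the share, and 19 did not. For single members 838 stayed within the spread between plates, 161 moved and 1 reversed.

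With the log2 of the mean FPKM plus 1 in place of mean log2, the day 2 medians were 0.70 (S phase) and 2.21 (mitotic). At day 4 they were 2.33 and 2.02. On that scale 14 members were higher and 3 lower at day 2, beside 8.04% and 5.58% of measured genes. Cdk4 turned to −0.17 at day 4. With a pseudocount of 10, 0 members were higher at day 2 and 7 at day 4, beside 0.588% and 5.21% of measured genes. The S-phase median at day 4 was then 0.69. Fitted with detected genes as a term, 1 and 8 members were higher at day 2 and day 4 (beside 0.945% and 5.65% of measured genes). The mitotic median at day 4 was 0.084. Among cells with 2500 to 4500 detected genes, chosen after seeing the data, 1 and 9 members were higher (beside 5.15% and 8.64%). The mitotic median at day 4 was then 0.16. With 3 members on as the limit, the day 2 shares were 18.5% (S phase) and 31.5% (mitotic), and with 9 the S-phase share at day 4 was 19.4%. Leaving out each plate in turn gave mitotic shares in untreated cells from 0 to 2.78%. Without the filter on low values, 0.614% and 3.00% of all genes were higher at day 2 and day 4. The cause of these changes was not tested.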
